A study of Mus musculus with 3 samples.

Results

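MHC class II molecules present peptides from the endocytic pathway to CD4+ T cells, and B cells, dendritic cells and macrophages are the cells best known for carrying them. The α and β chains assemble with the invariant chain, and the peptide is loaded later with the help of a further, non-classical class II dimer. Transcription of these genes depends on the coactivator CIITA, which does not bind DNA itself and acts through a complex assembled on the X and Y boxes of each promoter. Ciita in turn is switched on from several promoters, of which the first is known from dendritic cells, the next (promoter III) from lymphocytes and the last (promoter IV) from interferon-γ responses.

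Chromatin accessibility was examined at 8 genes: Ciita, the invariant chain gene Cd74, the chain genes H2-Aa, H2-Ab1 and H2-Eb1, the peptide-loading genes H2-DMa and H2-DMb1, and H2-Oa, which encodes a chain of the inhibitor of peptide loading. They were chosen by name, and all 8 of 8 were found among 21938 protein-coding genes. Every peak overlapping a gene body or the 10 kb on either side of it was taken, or 30 kb for Ciita. Overlapping peaks of different lists were merged into regions, which are numbered along the chromosome under the first gene whose window holds them.

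The libraries were ATAC-seq, which marks accessible DNA by transposase insertion, from 4 BCR-ABL(p185) transformed mouse pre/pro-B cell lines. Bone marrow had been transduced with a retrovirus, so every line of both genotypes carries the oncogene. WT lines came from mice with wildtype Cdk6 on both alleles, and K43M lines from mice homozygous for a kinase-inactive Cdk6. There was 1 library per line and 2 lines per genotype: WT replicate 2, K43M replicate 1, K43M replicate 2, and a further list with no sample label of its own, placed with WT from the design text and called WT unnumbered. That last library had been submitted earlier and was reanalysed for the series, and p-values measure the spread between these lines only. Age and sex of the donors are not given in the sources used here.

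The lists held 33038, 34248, 39038 and 34752 peaks, given throughout in the order WT unnumbered, WT replicate 2, K43M replicate 1, K43M replicate 2. Read totals are not part of a peak list, but the summit pileup (the number of read ends whose 200-bp window covered the summit) and the local background were recovered from the listed values. The genome-wide background was 65.3, 56.7, 55.1 and 48.4 read ends per 10 kb, so the WT lists were the deeper ones. A peak needed a pileup of at least 7, 6, 6 and 6, and more where the local background was high, so a missing peak means accessibility below that limit and not closed chromatin. Of 10 B-lineage marker genes, 7 had a promoter peak in all 4 lists, against 0 of 5 T cell genes and 0 of 3 genes of other tissues. Of 10 myeloid and dendritic genes, 0 had one in all 4 lists, and the separate lists held 3, 5, 3 and 4 of them.

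The letters of the promoters are shown first. The X and Y box pairs listed here were sought only within 150 bp of the strongest summit of each region, with at most 1 mismatch. That they lie near peaks was therefore set by the search. The X box was searched as AGNNAC, 1 further base and GATG, followed after 12 to 30 bases by the Y box ATTGG, on both strands. 4 promoters near the members, those of H2-DMb2, H2-Ab1, H2-Eb1 and H2-Eb2, have such a pair outside annotated exons. Each pair is written 5′ to 3′ on the plus strand, which is the strand of these genes, with the X box and the Y box in capitals:
H2-DMb2, chr17:34145125-34145163: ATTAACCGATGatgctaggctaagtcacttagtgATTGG
H2-Ab1, chr17:34263149-34263186: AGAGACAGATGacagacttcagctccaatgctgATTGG
H2-Eb1, chr17:34305775-34305812: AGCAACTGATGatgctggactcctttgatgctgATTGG
H2-Eb2, chr17:34325542-34325579: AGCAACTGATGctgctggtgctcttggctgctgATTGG

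The boxes were 22 or 23 bases apart in each of these promoters. The pair of H2-DMb2 had 1 mismatch in the X box and the other 3 had 0. Their last base lay 73, 23, 55 and 86 bp before the nearest coding transcript start of the gene. H2-DMa and H2-DMb1 hold a pair with 0 mismatches too, with the X boxes AGCGACTGATG at chr17:34135513-34135551 and AGTAACTGATG at chr17:34153096-34153134 (each interval spans the whole pair). Both pairs overlap annotated exons, and that of H2-DMa ended 77 bp before the nearest coding transcript start. The pair of H2-DMb1 began after the gene's start rather than before it. Sequences were read from the RefSeq GRCm38.p6 genome.

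Within 150 bp of the strongest summit, such a pair with at most 1 mismatch was present in 6 of the 36 regions near the members (16.7%), and in 0.375% of all 50867 regions that could be read. With at most 2 mismatches the shares were 27.8% and 3.23%. In the promoters themselves, from 250 bp before to 50 bp after a start, 4 of the 8 genes had a pair with at most 2 mismatches (Ciita, H2-Ab1, H2-DMa and H2-Eb1), against 9.11% of all genes. The Ciita pair had 2 mismatches, lay on the strand opposite to the gene and had 28 bases between its boxes. Those of H2-Ab1, H2-DMa and H2-Eb1 had 0 mismatches and lay on the gene's strand. The consensus of the insulator protein CTCF was found near the summit of 1 of the 36 regions, the H2-DMa promoter, beside 4.27% of all regions. Base composition was close to that of other regions, with a median of 49.5% G and C near the members and 51.2% over all regions.

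For the chain gene H2-Aa and for Ciita, longer stretches are shown. The search found no pair in the H2-Aa promoter. It allowed at most 2 mismatches to a single form of the X box, so a more divergent X box could be missed. The 90 bases before the start of H2-Aa, read on its minus strand, hold the cyclic AMP response element TGACGTCA and a Y box, both in capitals below. TGACGTCA was found in 3.50% of promoters and was looked for after this sequence had been seen. The 180 bases before the second group of Ciita starts, by its place promoter III, are shown with the stretch between the outermost of the 4 summits in capitals. In the 150 bases before the third group, by its place promoter IV, the capitals mark the interferon elements TTCNNNGAA and GAAANNGAA and between them the E-box CACGTG:
H2-Aa, chr17:34287824-34287913: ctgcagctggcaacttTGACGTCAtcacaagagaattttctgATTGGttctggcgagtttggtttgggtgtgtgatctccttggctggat
Ciita promoter III, chr16:10487998-10488177: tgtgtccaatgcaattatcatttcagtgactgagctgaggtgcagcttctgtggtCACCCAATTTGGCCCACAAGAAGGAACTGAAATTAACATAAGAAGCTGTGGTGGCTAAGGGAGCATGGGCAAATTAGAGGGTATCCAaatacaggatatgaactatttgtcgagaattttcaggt
Ciita promoter IV, chr16:10489596-10489745: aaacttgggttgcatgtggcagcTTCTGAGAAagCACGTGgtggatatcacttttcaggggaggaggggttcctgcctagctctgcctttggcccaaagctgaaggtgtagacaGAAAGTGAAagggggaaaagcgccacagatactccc

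The elements of promoter IV are short, and each one is common: TTCNNNGAA was found in 20.4% of promoters, CACGTG in 15.6% and GAAANNGAA in 22.02%. All were searched on both strands. A match describes the letters only and shows no binding.

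Ciita, the regulator of the family, had 9 regions, of which 5 had a peak in all 4 lists, 0 were specific to a genotype and 3 were seen in 1 list. At the first group of starts, the promoter known from dendritic cells, no list had a peak, and the nearest one lay between 7639 and 7893 bp away. At promoter III every list had one. The summit pileups there were 19, 17, 23 and 20, over local backgrounds of 128, 99, 99 and 136 read ends per 10 kb, which gave fold enrichments of 5.62, 6.04, 8.05 and 5.65. The 4 summits lay between 125 and 39 bp before the first start of the group. Both K43M pileups were above both WT pileups, while the fold enrichments of the genotypes overlapped. Limma found a K43M minus WT difference of 0.21 ± 0.22 (SE) in log2 fold enrichment (adjusted p = 0.761), which was 0.01 without K43M replicate 1 and 0.42 without K43M replicate 2.

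Promoter IV had no peak on its start in any list. The nearest peak ended 542, 576, 610 and 737 bp before it, in a region between both promoters (region 3 of Ciita, chr16:10488629-10489204). That region had summit pileups of 22, 22, 17 and 13 and fold enrichments of 6.42, 7.77, 6.08 and 3.83. Both K43M lists were below both WT lists on either measure. The limma difference of -0.55 ± 0.24 in log2 fold enrichment had an unadjusted p of 0.0378 and did not pass the adjustment over 21012 regions (adjusted p = 0.377). It was -0.27 without K43M replicate 2 and -0.83 without K43M replicate 1.

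Further into Ciita, region 5 (chr16:10508712-10509077) overlapped an exon 18929 bp from the nearest start. Its pileups of 36, 20, 30 and 15 varied more between lines of a genotype than between genotypes. Region 4, within the gene 6109 bp from a start, had pileups of 9, 13 and 10 in WT replicate 2, K43M replicate 1 and K43M replicate 2 and no peak in WT unnumbered. The 2 regions past the 3′ end belong to the starts of the neighbours Dexi and Clec16a. The stronger of them, region 8, had pileups of 54, 60, 58 and 50. Regions 6 and 7 were weak, with pileups of 7 and 9 in K43M replicate 2 alone, and region 1, a peak of 16 just upstream of promoter III, was listed in WT unnumbered alone.

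**Figure D1:**
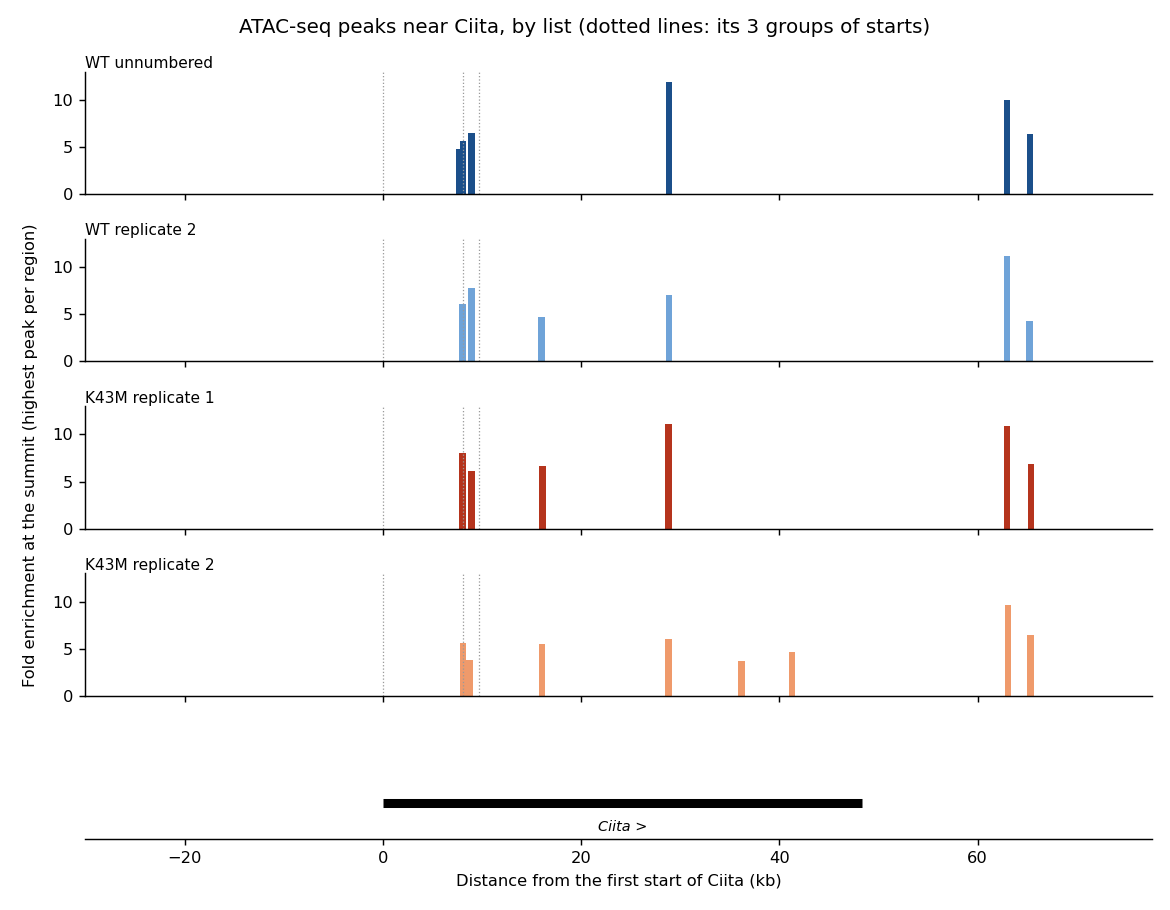
Fold enrichment (y axis) of the highest peak per region and list against distance from the first start of Ciita in kb (x axis), 1 panel per list, with the gene as a black bar and its 3 groups of starts as dotted lines; narrow peaks are widened to stay visible. No list has a peak at the first start, and every list has one at the second.

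Across the 8 genes the peaks merged into 36 regions of 50965 in the genome, and 20, 22, 29 and 27 peaks of the 4 lists fell in them. These were 0.605, 0.642, 0.743 and 0.777 of every 1000 peaks in a list, so the K43M lists had more peaks here also per listed peak. This difference rests on few peaks, some of them neighbours at 1 gene, and was not tested. A peak in all 4 lists was found in 16 of the 36 regions (44.4%), beside 41.2% of all regions. Strictly WT-only regions, with a peak in both WT lists and neither K43M list, numbered 0, beside 4.51% of all regions. Strictly K43M-only regions numbered 3 (8.33%), beside 7.64% of all regions. The share of K43M-only regions near the members was therefore close to that of the genome.

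Of the remaining regions, 12 (33.3%) were in 1 list, beside 28.7% of all regions. Another 5 regions were in 3 lists, and 4 of them lacked a peak in WT unnumbered only, a pattern of 4.17% of all regions. In K43M replicate 1 alone there were 5 regions (13.9%), beside 10.5% of all regions, and this was the longest list. Where a region was in all 4 lists, its summits agreed within a median of 37.5 bp, beside 56 bp over all shared regions. Promoter windows, from 2000 bp before to 200 bp after a start of any gene, held 22 of the 36 regions (61.1%), beside 33.0% of all regions. The 36 were taken from windows around genes, so a higher share than among all regions was partly set by that choice.

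The 3 K43M-only regions all lie at the classical chain genes. In H2-Ab1, which encodes the I-A β chain, chr17:34264538-34265221 lay inside the gene 1207 bp from a start. Its pileups were 21 and 11 in K43M replicates 1 and 2, with fold enrichments of 5.14 and 3.66. The peaks of these lists overlapped only at their ends, with summits 338 bp apart. That of K43M replicate 2 ranked at percentile 2.05 of its list by -log10 q. Between H2-Aa and H2-Eb1, chr17:34296065-34296389 had pileups of 11 and 16 and fold enrichments of 5.13 and 7.59. In H2-Eb1, the I-E β chain gene, chr17:34306467-34306922 lay 450 bp from a start, with 12 and 19 and fold enrichments of 4.17 and 6.58. All 3 were small peaks, with pileups below the median of 23 and 22 in these lists. With the same number of peaks taken from each list, the count was 1, and 1 region was then WT-only. The count of K43M-only regions was 2 with a stricter overlap of peaks. It was also 2 among peaks with -log10 q of at least 5, and with narrower windows around the genes.

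The regions were spread unevenly over the genes. Ciita had 9, Cd74, H2-Eb1 and H2-DMa 6 each, H2-Ab1 4, H2-Aa and H2-DMb1 3 each and H2-Oa 2, with regions between neighbours counted for each of them, beside a median of 2 over protein-coding genes with 10 kb on either side. With 10 kb in place of 30 kb, Ciita had 7. H2-Aa was the one gene with 0 regions shared by all lists. H2-Eb1 had a further region inside the gene, 3933 bp from a start, with pileups of 14, 10 and 8 in the 3 lists other than WT unnumbered.

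Peaks seen in K43M replicate 1 alone lay at H2-Ab1 (region 3, a pileup of 21), upstream of the H2-Eb1 promoter peak and as high as it in that list (region 1, a pileup of 16), and between H2-Aa and H2-Eb1 (region 2 of H2-Aa, a pileup of 12). WT unnumbered alone had a peak of 41 at the upstream starts of H2-DMa and one of 33 inside Cd74, and WT replicate 2 alone one of 40 inside Cd74. These peaks stood on high backgrounds and had fold enrichments of 3.03, 3.30 and 3.52.

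A promoter peak in all 4 lists was found for 4 of the 8 genes (Ciita, H2-Ab1, H2-Eb1 and H2-DMa), beside 47.6% of protein-coding genes. H2-Aa had one in 3 lists, and H2-Oa, Cd74 and H2-DMb1 in 1 list each. Strict genotype-only promoter peaks were found at 0 of the 8 genes, beside 0.515% of protein-coding genes that were WT-only and 2% that were K43M-only.

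**Figure D2:**
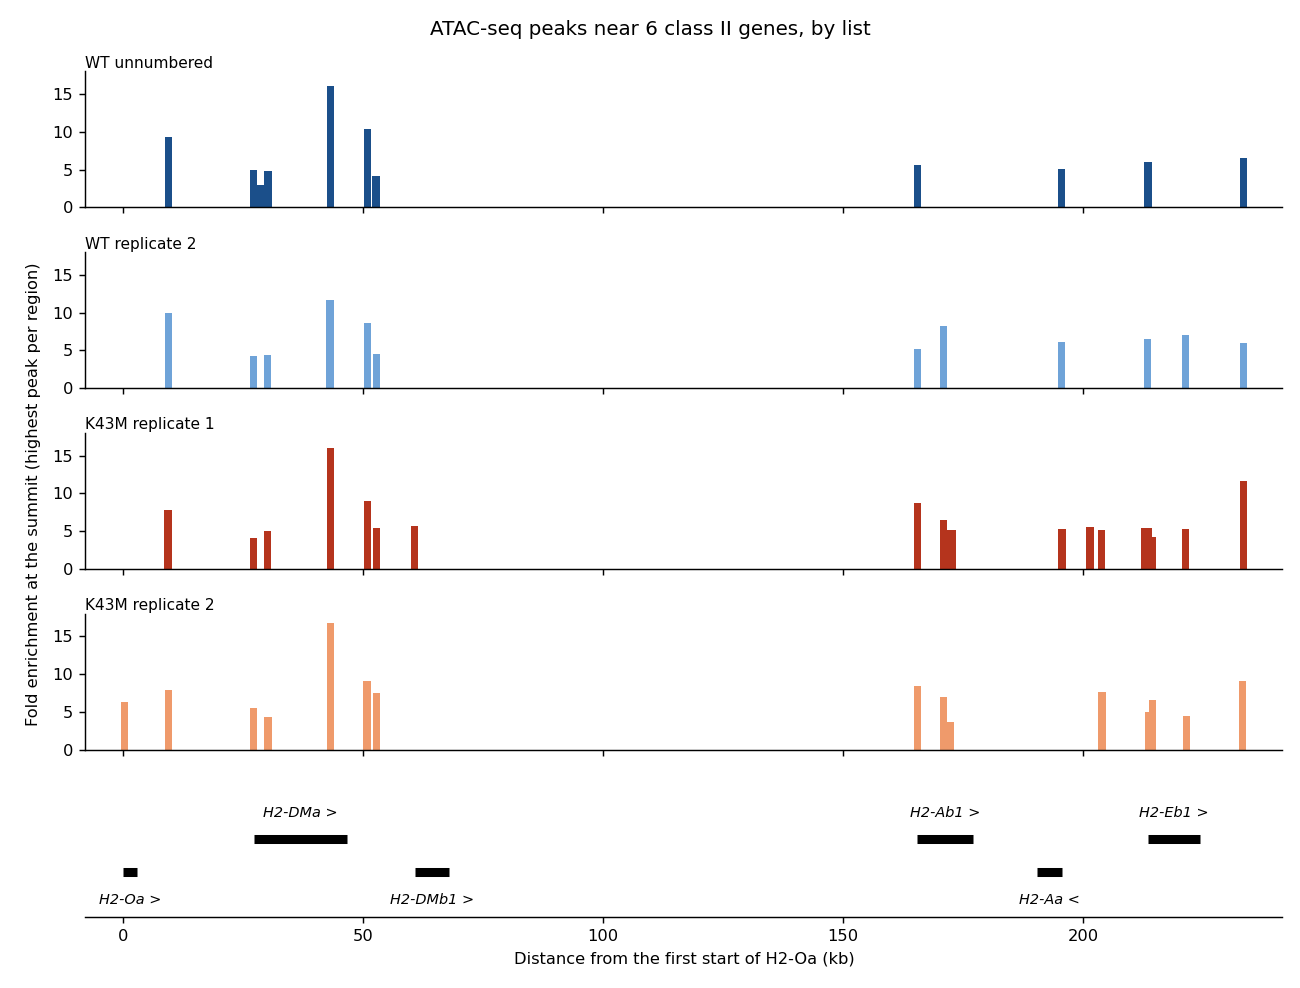
Fold enrichment (y axis) of the highest peak per region and list against distance from the first start of H2-Oa in kb (x axis), 1 panel per list, for the 6 class II genes of the cluster (black bars, with > or < for the strand); narrow peaks are widened to stay visible. H2-DMa carries the highest peak in every list, between 11.7 and 16.8. Between the promoter peaks of H2-Aa and H2-Eb1, only the K43M panels have further peaks.

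H2-DMa, which encodes the α chain of the peptide-loading dimer, was the most accessible of the class II genes. At its coding start (region 4, chr17:34135199-34135806) the pileups were 50, 37, 52 and 54 and the fold enrichments 16.14, 11.66, 15.96 and 16.77. The summits lay at -128, -136, -138 and -109 bp from the first start, and the strongest of them lay within the X and Y box pair described above. WT replicate 2 was the lowest, and the other 3 lists stood together. The limma difference was 0.26 ± 0.14 in log2 fold enrichment (adjusted p = 0.498), and it was 0.02 without WT replicate 2, 0.17 without K43M replicate 2 and 0.49 without WT unnumbered. The upstream starts of H2-DMa coincide with those of Brd2, a ubiquitous bromodomain gene, and the peaks shared by all lists there (regions 1 and 3) had pileups of 51 to 70 over local backgrounds of 554 to 698 read ends per 10 kb.

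Between H2-DMa and H2-DMb1 lies H2-DMb2, a further gene for the β chain of the loading dimer, whose 2 promoter regions fall in the windows of both members. The upstream one (region 5) had pileups of 36, 36, 42 and 43. The downstream one, which holds the X and Y box pair (region 6, chr17:34144906-34145294), had pileups of 14, 18, 25 and 36 and fold enrichments of 4.19, 4.57, 5.46 and 7.52. Both K43M lists were above both WT lists, and the limma difference of 0.55 ± 0.23 in log2 fold enrichment had an unadjusted p of 0.0323 but an adjusted p of 0.355. It was 0.27 without K43M replicate 2 and 0.84 without K43M replicate 1. H2-DMb1 itself had a promoter peak only in K43M replicate 1, with a pileup of 11, over its box pair. In the other lists the nearest peak was 7906, 7882 and 7780 bp from its first start.

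H2-Oa had a promoter peak only in K43M replicate 2, with a pileup of 12. Its other region, downstream of H2-Oa and 1454 bp from the start of the gene model CR974462.2, was in all lists, with pileups of 27, 33, 24 and 23.

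At H2-Ab1 the coding start (region 2, chr17:34263017-34263479) had a peak in 3 lists, with pileups of 17, 27 and 22 in WT replicate 2, K43M replicate 1 and K43M replicate 2 and none in WT unnumbered. The fold enrichments were 8.18, 6.48 and 6.93, and the order of the lists differs between both measures because the local background was 60, 166 and 116 read ends per 10 kb. All 3 summits lay near the box pair, at -49, -36 and -65 bp from the start. The nearest peak of WT unnumbered was 5365 bp away. That peak lay at a non-coding upstream start (region 1, chr17:34257645-34258076), which had pileups of 12, 10, 21 and 16 and fold enrichments of 5.64, 5.15, 8.66 and 8.42. Here both K43M lists exceeded both WT lists, with a limma difference of 0.67 ± 0.20 in log2 fold enrichment, an unadjusted p of 0.00493 and an adjusted p of 0.188.

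H2-Aa, the I-A α chain gene, had a peak on its start in 3 lists, with pileups of 11, 12 and 10 in WT unnumbered, WT replicate 2 and K43M replicate 1 and none in K43M replicate 2. These pileups, like the single ones of H2-Oa (12) and H2-DMb1 (11), are small, beside a lowest pileup of 6 or 7 for any peak of a list. The nearest peak of K43M replicate 2 was 8278 bp away.

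At the H2-Eb1 promoter (region 2, chr17:34305639-34305956) all lists had a peak over the box pair, with pileups of 13, 13, 16 and 14. The fold enrichments of 6.07, 6.56, 5.41 and 4.93 put both K43M lists below both WT lists, although their pileups were slightly higher. The local background was 107 and 102 read ends per 10 kb in the K43M lists. In both WT lists it was at the genome-wide value, which is the lowest the peak caller uses. The limma difference was -0.29 ± 0.20 in log2 fold enrichment (adjusted p = 0.628). On summit pileup it was 0.31 ± 0.31 (adjusted p = 0.652), with the opposite sign.

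At the downstream neighbour H2-Eb2, a further β chain gene (region 5 of H2-Eb1, chr17:34325326-34325805), the pileups were 14, 14, 34 and 28 and the fold enrichments 6.50, 5.95, 11.7 and 9.12. This was the widest separation of the genotypes among the shared regions. The limma difference of 0.73 ± 0.18 in log2 fold enrichment had an unadjusted p of 0.00154 and did not pass the adjustment (adjusted p = 0.135). On summit pileup the difference was 1.25 ± 0.30 and passed (adjusted p = 0.0269). That measure called 2.29% of all shared regions higher and 1.93% lower in K43M, and 1 of the 16 member regions.

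**Figure D3:**
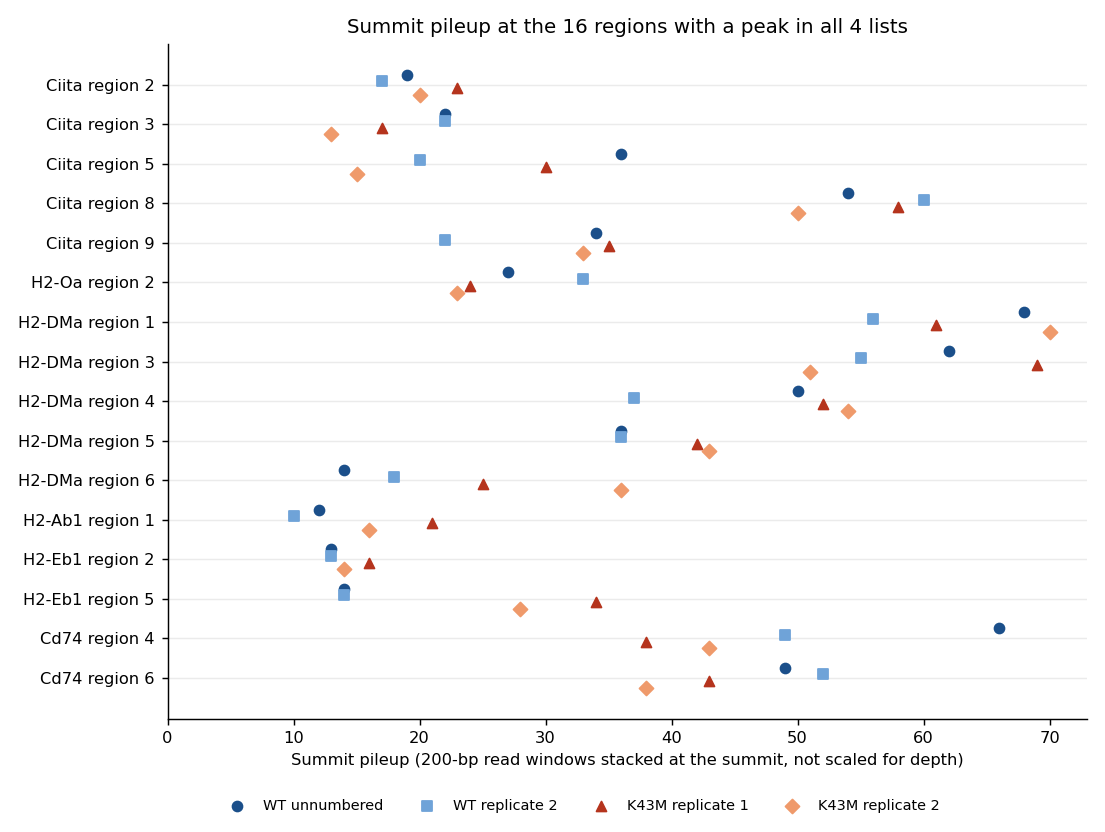
Summit pileup (x axis, read ends with a 200-bp window over the summit, not scaled for depth) at the 16 shared regions near the 8 genes (y axis), 1 point per list. Both K43M points lie above both WT points at Ciita region 2, H2-DMa regions 4, 5 and 6, H2-Ab1 region 1 and H2-Eb1 regions 2 and 5, and below at Ciita region 3, H2-Oa region 2 and both Cd74 regions.

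Cd74, the invariant chain gene, had no promoter peak in 3 lists, and K43M replicate 1 had one with a pileup of 26 and a fold enrichment of 3.27. Its regions with a peak in all lists lay inside the gene. The local background was high at Cd74, so a promoter peak needed a higher pileup there. A missing promoter peak therefore does not mean a closed promoter. Region 4 (chr18:60805526-60806090), 1621 bp from the nearest start, had pileups of 66, 49, 38 and 43, and region 6 (chr18:60807041-60807665), 3136 bp from it, 49, 52, 43 and 38. Both WT lists were above both K43M lists in pileup. The fold enrichments were 6.54, 4.31, 4.95 and 5.99 in region 4 and 4.83, 4.51, 5.37 and 5.23 in region 6, and limma gave 0.04 ± 0.24 (adjusted p = 0.971) and 0.18 ± 0.19 (adjusted p = 0.774). In region 4 the sign depended on the libraries, with -0.26 without WT replicate 2, -0.15 without K43M replicate 2, 0.23 without K43M replicate 1 and 0.34 without WT unnumbered.

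The local background at Cd74 was high, at 462, 530, 344 and 317 read ends per 10 kb in region 4, and it enters the fold enrichment as the divisor. The whole of chromosome 18 moved in the same direction: its background at shared regions, relative to the autosomes, was 0.23, 0.27, -0.14 and -0.20 on the log2 scale. Chromosomes 16 and 17, which hold the other members, stood between -0.24 and -0.02 in all lists. The part of the chromosome in the Cd74 values was not tested. Region 1, upstream of the gene, had pileups of 26, 16 and 13 in the 3 lists other than WT unnumbered.

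Over the 16 shared member regions, limma on log2 fold enrichment called 0, beside 0.0619% of shared regions called higher and 0.0476% called lower in K43M. At an unadjusted p under 0.05 there were 4 of 16 (Ciita region 3, H2-DMa region 6, H2-Ab1 region 1 and H2-Eb1 region 5), beside 12.2% of all shared regions. The median K43M minus WT difference of the 16 was 0.05 in log2 fold enrichment, beside 0.0015 over all shared regions. After centring, both K43M lists were above both WT lists in 5 of the 16 (all regions, 21.3%) and below in 3 (all regions, 21%). By summit pileup the counts were 9 above (24.4%) and 3 below (24%).

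The local background itself, a measure of accessibility over 10 kb, was compared after the values had been seen. Both K43M lists lay above both WT lists in 6 of the 16 regions, beside 26.4% of all shared regions, and all 6 were in the class II cluster. They lay below in 3, beside 27.4%, which were both Cd74 regions and Ciita region 5. Regions closer than 10 kb share much of this background, so they are not separate measurements. This holds for H2-DMa regions 1 and 3, at the starts of Brd2, for H2-DMa regions 5 and 6, and for both Cd74 regions. Limma on the log2 background called 1 of the 16, the H2-Eb1 promoter, where K43M was higher by 0.90 ± 0.16 (adjusted p = 0.0224). This measure called 3.28% of all shared regions higher and 3.45% lower. Since the WT values at H2-Eb1 stood at the lower limit of the peak caller, the fitted difference is no exact size.

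**Figure D4:**
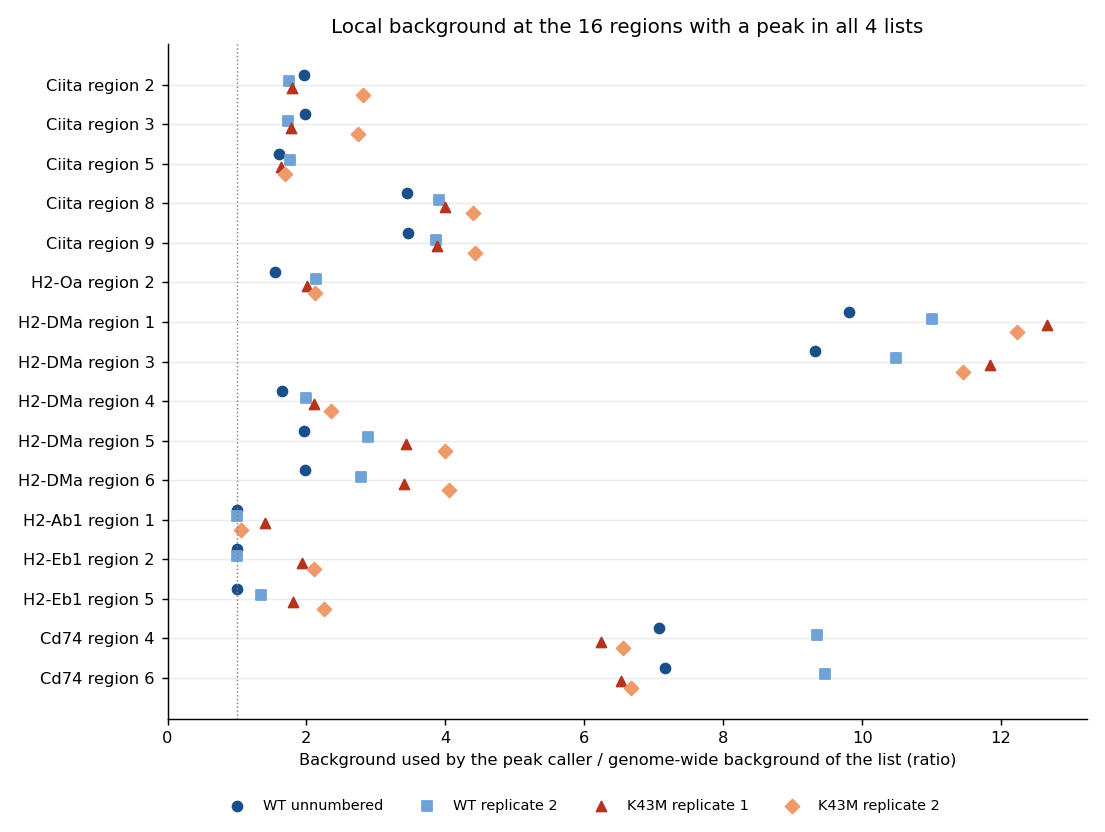
Local background divided by the genome-wide background of the same list (x axis, ratio, dotted line at 1) at the 16 shared regions near the 8 genes (y axis), 1 point per list. At the H2-Eb1 promoter both WT points sit at 1 and the K43M points at 1.94 and 2.11, and at the Cd74 regions both WT points lie above both K43M points.

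The wider pathway was read from promoter peaks. All 16 of 16 regulators had one in every list, among them Rfx5, Rfxap and Rfxank, the subunits of the X box binding complex, the Y box subunits Nfya, Nfyb and Nfyc, and Creb1. Of the other class II genes, H2-DMb2, H2-Ob and H2-Eb2 had one in every list and the pseudogene H2-Ea-ps in none. Of 8 genes for class II antigen processing, 5 did. Cd83 had no promoter peak in any list, Ifi30, the lysosomal thiol reductase, had one in K43M replicate 1 only, and the ubiquitin ligase gene March1 in WT replicate 2 and K43M replicate 2. Of 10 class I presentation genes, 9 had one in every list, and Tap2, a peptide transporter subunit, in both WT lists and neither K43M list, as for 0.515% of protein-coding genes. Limma on fold enrichment called 0 of the 53 shared promoter regions of the members and these lists, with 7 (13.2%) at an unadjusted p under 0.05, beside 12.2% of all shared regions.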

How the data were processed

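Per the study's methods, the authors trimmed reads with Trimmomatic 0.36, mapped them to mm10 with BWA 0.7.15 and called peaks in each library with MACS2 2.1.0. No control and no pooling are named. The deposited lists give a fold enrichment (a ratio of summit signal to background), a -log10 p, a -log10 q and an integer score, which the authors' caller set from -log10 q.

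Pileup and background were recovered from fold enrichment and -log10 p by the caller's Poisson formula, for 100% of peaks. The pileups limit the precision. Peaks overlapping by 1 bp were merged over the 4 lists. Where a list had several peaks in a region, its highest was used. Log2 fold enrichments of the 21012 regions shared by all lists were centred on each list's median and compared by limma 3.58.1 (R 4.3.3) with Benjamini-Hochberg adjustment at 0.05. No pseudocount was needed. Annotation was GENCODE M21 (GRCm38). Starts within 500 bp were grouped. Motifs were searched in all promoters with Python 3.11.15. The code was tested on simulated data. The members and lists were chosen with earlier results of these data known. All 8 members were named, with each region called or strictly of 1 genotype, and pathway genes where no list or the lists of 1 genotype held a promoter peak; Ifi30 and March1 were named after their values were seen. Reads and the study's binding and expression data were not analysed here. No columns of other samples were present (0).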

Additional observations from a re-analysis of the deposited data

How the results depend on the processing

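The count of regions with a peak in all 4 lists (16) stayed within 1.5 times of itself under every alternative run. The count of WT-only regions (0) became 1 with the same number of peaks per list, and between 0 and 3 when a library was left out. The count of K43M-only regions (3) became 1 with the same number of peaks per list. It was 2 with a stricter overlap of peaks, among peaks with -log10 q of at least 5, and with narrower windows. It lay between 3 and 8 when a library was left out, since a lone library then stood for its genotype. The number of genes with a promoter peak in all lists lay between 3 (protein-coding transcripts only, without H2-Ab1) and 5 (without K43M replicate 2). Without WT unnumbered the region counts were 20 in all lists, 1 WT-only and 3 K43M-only.

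The number of shared member regions called (0) became 1 with summit pileup in place of fold enrichment (H2-Eb1 region 5) and 1 with the local background (H2-Eb1 region 2), an alternative chosen after the values had been seen. It stayed 0 without centring, with quantile normalization, above the median fold enrichment and without each library. The fit above the median fold enrichment did not include Ciita region 3, H2-DMa region 6, H2-Ab1 region 1 or H2-Eb1 region 5. They were the member regions with an unadjusted p under 0.05 in the main limma fit, so that 0 covers none of them. Over all shared regions, fold enrichment called 13 higher and 10 lower, pileup 482 and 405, local background 690 and 725, quantile normalization 6 and 4, and no centring 0 and 0. The calls were 190 and 62 without WT unnumbered, 254 and 107 without WT replicate 2, and 0 without either K43M library. The cause was not tested. Of 58 differences recomputed for the 8 shared member regions with the largest differences, 57 kept their sign, and the H2-Eb1 promoter reversed to 0.31 with summit pileup, since its background differed. These regions were chosen by the size of the same differences, which favours a steady sign. Of the other shared member regions, only Ciita region 2 kept its sign throughout. Ciita region 5 went from -0.16 to 0.23 without WT unnumbered, and Cd74 region 6 from 0.18 to -0.21 on summit pileup. Among the 8 regions the sizes were less steady than the signs. Leaving out 1 library in turn gave -0.83 to -0.27 at Ciita region 3 (-0.55), 0.07 to 0.63 at Ciita region 9 (0.35), 0.02 to 0.49 at H2-DMa region 4 (0.26) and 0.27 to 0.84 at H2-DMa region 6 (0.55), with the value from all libraries in parentheses. At the other 4 they stayed within 1.5 times. The number of genes with a box pair was 3 with at most 1 mismatch and 5 in the wider window.

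No paired analysis was possible because the groups share only the replicate number 2 in their labels. With 2 lines per genotype, differences within the spread between lines could not be resolved, and a peak list holds no value for a library below its peak limit.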
